A study of Mus musculus with 6 samples.

Results

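Bone morphogenetic proteins (BMPs), growth differentiation factors (GDFs) and activins are secreted dimers of the TGF-beta superfamily. BMPs signal through type I and type II receptor kinases to SMAD1 and SMAD5, while activins act through such receptors on SMAD2 and SMAD3. Secreted antagonists such as gremlin and follistatin bind the ligands and keep them from these receptors. Endoglin, the target of the antibodies tested here, is a co-receptor in this system that is best known from blood vessels.

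The 10 genes described here, of 23284 listed, were chosen by exact symbol. They were 4 BMP ligands (BMP2, BMP4, BMP6 and BMP7), 3 other ligands (INHBA, GDF11 and GDF15) and 3 antagonists (GREM1, FST and FSTL3). Their RNA was measured by sequencing in xenografts of STS26T, a human line from a malignant peripheral nerve sheath tumour (MPNST), implanted subcutaneously in athymic nude mice. In 3 tumours the mice had been given the anti-ENG antibodies TRC105, against the human protein, and M1043, against the mouse one. In the other 3 they had been given the matching IgG. Each arm received 10 mg/kg by intraperitoneal injection, 2 times a week for 3 weeks, once tumours could be felt. All 6 tumours thus came from 1 cell line, in hosts that lack mature T cells but keep other immune cells and their own vessels and fibroblasts.

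Gene levels are the authors' FPKM values, a fragment count scaled by transcript length and by library size, which are comparable between genes because of the length scaling. Total depth is unknown, but relative depth was estimated from the value of 1 fragment in low genes. It was 1.46, 1.23 and 1.14 times that of IgG control 1 in anti-ENG 1, 2 and 3. In IgG control 2 and 3 it was 1.18 and 1.10 times. These values are depths only if plain library-size scaling was used, which is not given. The Schwann and neural crest markers SOX9 and TWIST1 were present in all 6 tumours, at 19.1 FPKM or more, while S100B and SOX10 averaged under 1 FPKM. Of the markers of other cells, the 10 fibroblast genes summed to between 222 and 541 FPKM in anti-ENG tumours and between 453 and 823 FPKM in IgG tumours, with 8 of them lower and 2 (THY1 and C7) higher in anti-ENG tumours by estimate. The 9 endothelial genes summed to between 4.69 and 8.21 FPKM in anti-ENG tumours and between 7.03 and 17.0 FPKM in IgG tumours. These ranges overlapped, and the higher IgG range came from FLT1. The other 8 endothelial genes summed to between 4.13 and 6.57 FPKM in anti-ENG tumours and between 3.11 and 6.54 FPKM in IgG tumours. The 8 pericyte and smooth muscle genes summed to 73.0 to 158 FPKM in anti-ENG tumours and 109 to 178 FPKM in IgG tumours. By estimate, 4 of them were lower and 2 higher in anti-ENG tumours. For PDGFRB, with means of 26.6 FPKM in anti-ENG tumours and 54.1 FPKM in IgG tumours, every anti-ENG tumour lay below every IgG tumour. Such a gap was found in 6.75% of all genes tested. The 6 neutrophil genes summed to between 1.65 and 110 FPKM in anti-ENG tumours and between 9.93 and 207 FPKM in IgG tumours, nearly all of it from S100A8 and S100A9. The 9 macrophage and leukocyte genes summed to between 84.8 and 111 FPKM in anti-ENG tumours and between 74.0 and 129 FPKM in IgG tumours. Most of this was CD68, with means of 81.5 FPKM in anti-ENG tumours and 78.4 FPKM in IgG tumours. Of these 9 genes, 5 averaged under 1 FPKM. MRC1 of that list and CSF3R and MPO of neutrophils were at 0 in all tumours, and no fibroblast or endothelial gene was. Of the 9 endothelial genes, however, 5 averaged under 1 FPKM, KDR, CLDN5 and VWF among them, against 0 of the 10 fibroblast genes. Host RNA is mouse and can be counted here only through reads that also match human genes, and the part of such cells in the results below was not tested. In bulk tumours, fewer cells of a type and less RNA per cell cannot be told apart.

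The tumours carried RNA for BMP and activin ligands, with little RNA for 2 of the 3 antagonists among the 10, GREM1 and FST. BMP4, INHBA and BMP2 were the most abundant, with means over all 6 tumours of 35.0, 29.5 and 21.8 FPKM. INHBA encodes the subunit of activin A. These means exceeded those of 89.8%, 87.8% and 83.5% of all genes listed. Their order was not fixed: BMP4 lay above INHBA in 4 of 6 tumours and INHBA above BMP2 in 4 of 6, and the ranges of all 3 overlapped.

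A middle group was formed by GDF15, FSTL3, GDF11 and BMP7. GDF15, a stress-induced ligand, averaged 7.05 FPKM, and FSTL3, a secreted binder of activin, averaged 6.04 FPKM. Neighbours in this order overlapped, and GDF15 was above FSTL3 in 2 of 6 tumours. GDF11, a close relative of myostatin, averaged 3.27 FPKM, and BMP7 averaged 2.43 FPKM. BMP2 was above GDF15, and FSTL3 above GDF11, in 6 of 6 tumours.

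GREM1, FST and BMP6 averaged under 1 FPKM, at 0.506, 0.0936 and 0.0385 FPKM. GREM1 encodes gremlin, which binds BMP2, BMP4 and BMP7, and FST encodes follistatin, which binds activin. FST and BMP6 were listed at 0 in 2 and 3 tumours. Of the 2 activin binders, FSTL3 was therefore the more abundant.

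**Figure D1:**
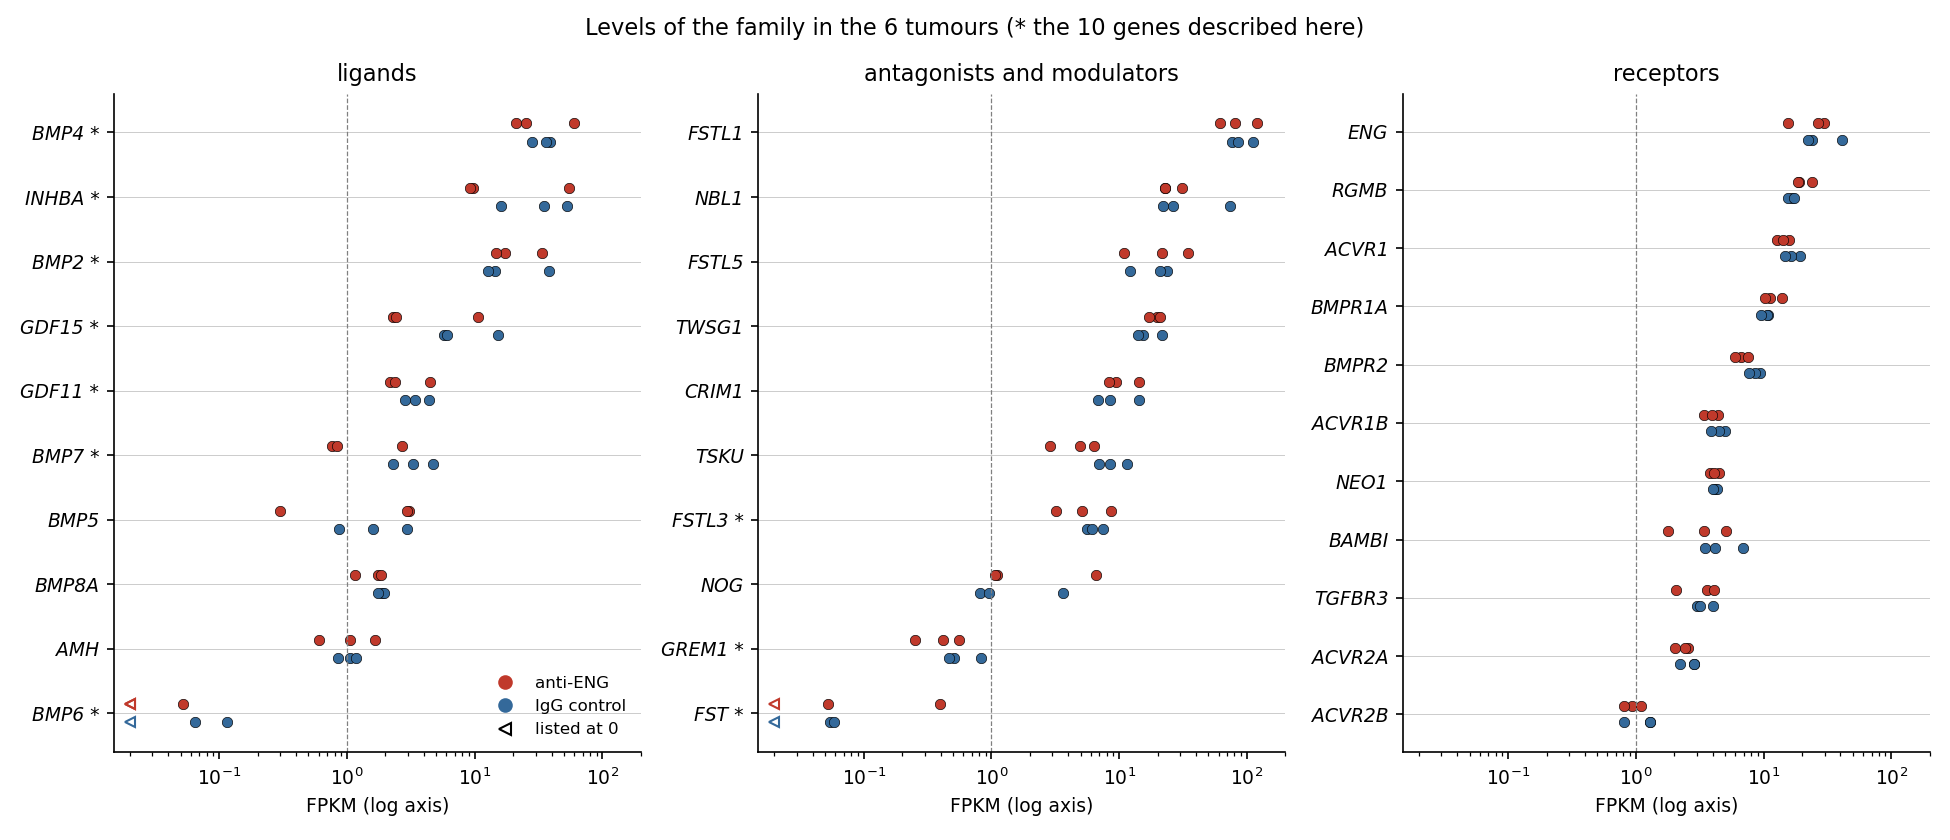
FPKM on a log axis for ligands (left), antagonists and modulators (middle) and receptors (right), with 1 dot per tumour, anti-ENG in red above IgG control in blue. Genes averaging 1 FPKM or more are shown beside all 10 genes described here, which carry a star, the dashed line marks 1 FPKM, and open triangles mark values listed at 0. BMP4, INHBA and BMP2 head the ligands, and FSTL3, GREM1 and FST lie in the lower part of the antagonists.

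Other members of the family were mostly near 0. Of 23 further ligands, 3 reached a mean of 1 FPKM. BMP5, BMP8A and AMH averaged 2.11, 1.59 and 1.10 FPKM in anti-ENG tumours and 1.81, 1.85 and 1.03 FPKM in IgG tumours. The remaining 20 were under it, and 8 were listed at 0 in every tumour. GDF2 and BMP10, the ligands that endoglin binds most tightly, were among these 8. ACVRL1, the type I receptor of GDF2 and BMP10, averaged 0.00654 FPKM in anti-ENG tumours and 0.00955 FPKM in IgG tumours. These are values of the human genes only.

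Of 21 further antagonists and modulators, 7 reached 1 FPKM. FSTL1, a follistatin-like glycoprotein, had 87.6 ± 30.0 FPKM in anti-ENG tumours and 91.4 ± 18.5 FPKM in IgG tumours (SD, n = 3 each). NBL1, an antagonist of the DAN family to which gremlin also belongs, had 25.6 ± 4.67 FPKM in anti-ENG tumours and 40.6 ± 28.3 FPKM in IgG tumours (SD, n = 3 each). Antagonist RNA in these tumours was thus led by genes outside the gremlin and follistatin trio. FSTL5 had 11.0, 34.9 and 21.7 FPKM in anti-ENG 1, 2 and 3, against 23.8, 12.2 and 20.7 FPKM in IgG control 1, 2 and 3. NOG, encoding noggin, was uneven, at 1.11, 1.07 and 6.57 FPKM in anti-ENG 1, 2 and 3 and at 0.813, 0.956 and 3.65 FPKM in IgG control 1, 2 and 3.

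The next comparison asks whether blocking endoglin changed any of these RNAs. No gene was called in the whole table: of 12586 genes tested with limma, 0 were higher and 0 lower in anti-ENG tumours at an adjusted p under 0.05 (0% and 0%), with 0.529 as the lowest adjusted p. Before adjustment, 1154 genes (9.17%) had a p under 0.05, with 5.56% of all genes higher and 3.61% lower. Among the 10, 7 genes reached the minimum mean of 1 FPKM and were tested. Of these 7, 0 passed the threshold, 1 had an unadjusted p under 0.05, and 0 had groups that did not overlap, against 17.3% of all genes tested. Estimates were lower in anti-ENG tumours for 6 of the 7, and higher for 1 (BMP2), where 48.8% of all tested genes were lower and 51.2% higher. Their median log2 fold change was -0.22, against 0.0065 over all genes tested. All fold changes were computed on log2(FPKM + 1), so those of genes with few FPKM are understated.

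Among the BMP ligands, BMP4 had 20.9, 60.4 and 25.1 FPKM in anti-ENG 1, 2 and 3, against 28.3, 39.2 and 36.0 FPKM in IgG control 1, 2 and 3. The anti-ENG tumours held both the highest and the lowest value, so the IgG values lay inside their range. The means were 35.5 ± 21.7 FPKM in anti-ENG tumours and 34.5 ± 5.63 FPKM in IgG tumours (SD, n = 3 each). The log2 fold change was -0.10 (95% interval -0.96 to 0.75, limma adjusted p = 0.927). It was -0.56 without anti-ENG 2 and 0.19 without anti-ENG 1, so its direction rested on single tumours.

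BMP2, which like BMP4 is a potent inducer of bone, had 17.2, 14.6 and 33.5 FPKM in anti-ENG 1, 2 and 3, against 38.2, 14.5 and 12.8 FPKM in IgG control 1, 2 and 3. Each group held 1 high tumour and 2 low ones. The means were 21.8 ± 10.3 FPKM in anti-ENG tumours and 21.8 ± 14.2 FPKM in IgG tumours (SD, n = 3 each). Its log2 fold change was 0.076 (95% interval -0.96 to 1.11, limma adjusted p = 0.958). It ran from -0.27 without anti-ENG 3 to 0.55 without IgG control 1.

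BMP7, a ligand best known from kidney and bone, had 0.764, 0.836 and 2.67 FPKM in anti-ENG 1, 2 and 3, against 4.75, 3.27 and 2.30 FPKM in IgG control 1, 2 and 3. Anti-ENG 1 and 2 lay below every IgG tumour, while anti-ENG 3 lay above IgG control 3. The means were 1.42 ± 1.08 FPKM in anti-ENG tumours and 3.44 ± 1.24 FPKM in IgG tumours (SD, n = 3 each). The log2 fold change of -0.92 (SE 0.33, 95% interval -1.70 to -0.14) had an unadjusted p of 0.0264 and did not pass over all genes (limma adjusted p = 0.529). It stayed negative when any 1 tumour was left out, between -1.27 and -0.72, but the unadjusted p then ran from 0.00258 without anti-ENG 3 to 0.0907 without IgG control 1. With tumours that share a number in the submitters' codes averaged, the estimate was -0.86 (limma unadjusted p = 0.0796), and with the replicate block the limma unadjusted p was 0.0590.

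BMP6 was at the edge of detection, with 0.0522 FPKM in anti-ENG 1 and 0 in anti-ENG 2 and 3, against 0.114, 0.0647 and 0 FPKM in IgG control 1, 2 and 3. Scaled by relative depth, its values were whole multiples of 1 common step (within 0.03 of a step): 2, 0 and 0 steps in anti-ENG 1, 2 and 3, and 3, 2 and 0 steps in IgG control 1, 2 and 3. If that step is 1 fragment, no more than 3 fragments were seen in any tumour. No difference was detectable at this depth.

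BMP4 and BMP2 together made up nearly all the RNA of the 4 BMP ligands, but not in constant parts. BMP4 took 53.7, 79.6 and 41.0% of their summed FPKM in anti-ENG 1, 2 and 3, against 39.6, 68.7 and 70.5% in IgG control 1, 2 and 3. BMP2 was the larger of the pair in anti-ENG 3 and IgG control 1. The share of BMP7 was 1.96, 1.10 and 4.36% in anti-ENG 1, 2 and 3, against 6.67, 5.72 and 4.50% in IgG control 1, 2 and 3. Every anti-ENG share of BMP7 lay below every IgG share, although that of anti-ENG 3 did so narrowly. In FPKM the BMP7 groups overlapped. Groups apart with anti-ENG below were found in FPKM for 6.75% of all genes tested, and were not counted for shares. A share moves with the other ligands too, and no test was made on it.

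**Figure D2:**
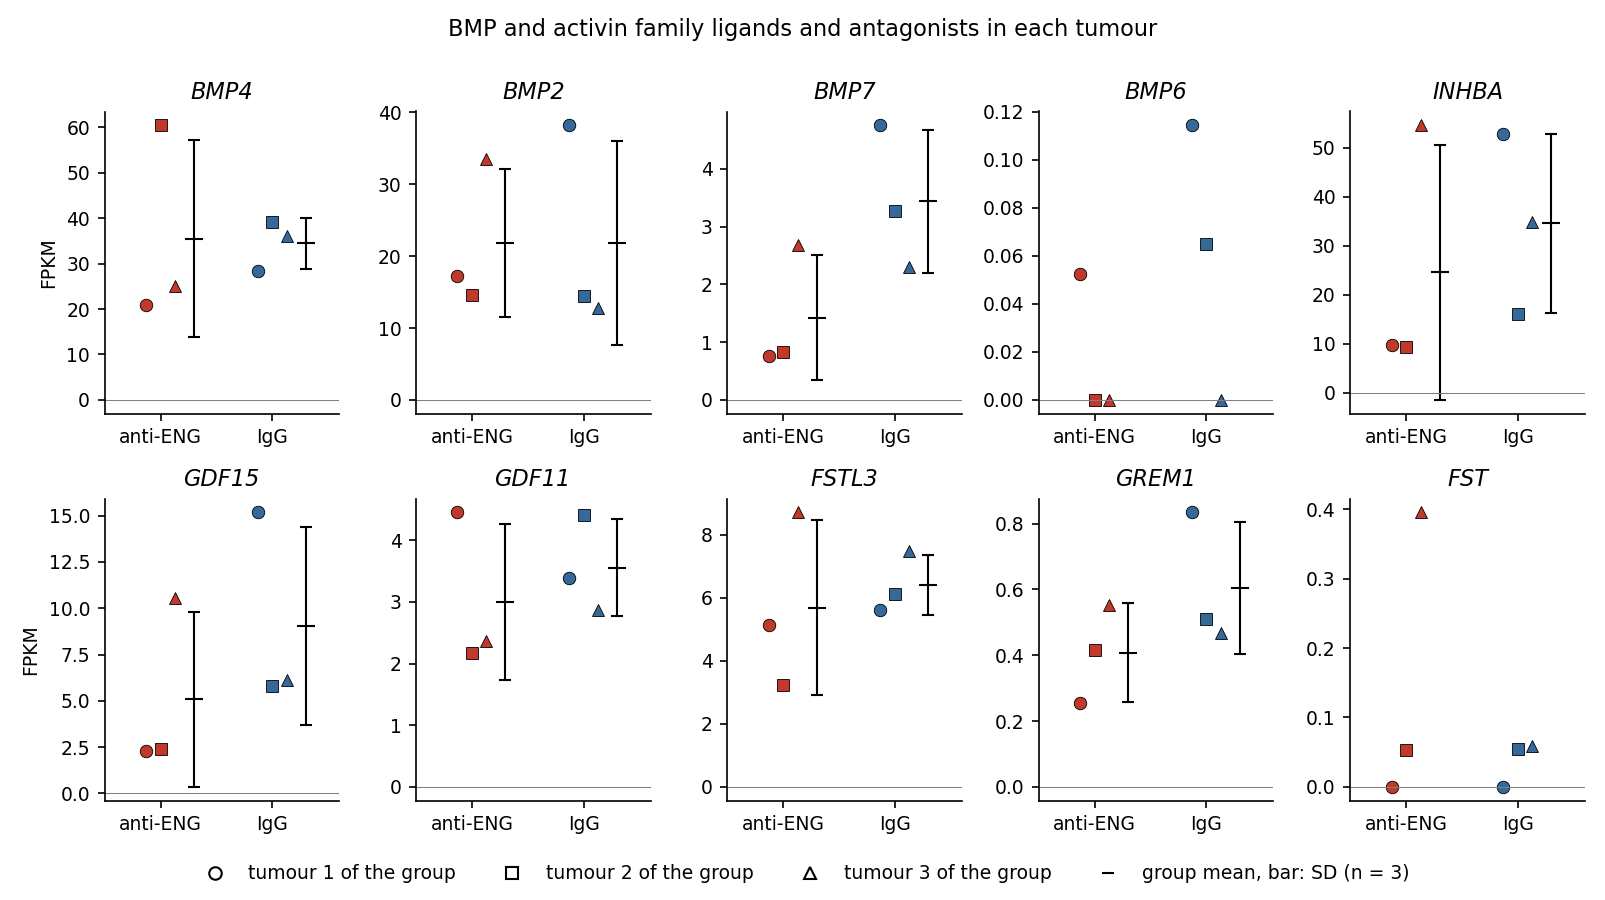
FPKM of each of the 10 genes in the 3 anti-ENG tumours (red, left) and the 3 IgG control tumours (blue, right), on a linear axis of its own for each gene. Bars give the group mean and SD (n = 3) and are left out for BMP6 and FST, which have values of 0. Values of the groups overlap in every panel, and anti-ENG 3 (triangle) sits above the other anti-ENG tumours for BMP2, BMP7, INHBA, GDF15, FSTL3, GREM1 and FST.

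INHBA had the largest spread within arms of the 7 tested genes. It had 9.76, 9.26 and 54.6 FPKM in anti-ENG 1, 2 and 3, against 52.7, 16.1 and 34.7 FPKM in IgG control 1, 2 and 3. The highest and the lowest tumour were both in the anti-ENG arm and differed 5.90-fold. Its residual SD within groups, 1.15 on the log2 scale, exceeded that of 99.5% of tested genes. Between arms its log2 fold change was -0.81 (95% interval -2.43 to 0.81, limma adjusted p = 0.673). Without anti-ENG 3 it was -1.61 (limma adjusted p = 0.426), and with anti-ENG 1 and IgG control 1 both left out it was -0.051.

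GDF15 followed a like order, with 2.30, 2.41 and 10.5 FPKM in anti-ENG 1, 2 and 3, against 15.2, 5.78 and 6.11 FPKM in IgG control 1, 2 and 3. Anti-ENG 1 and 2 were below all IgG tumours, and anti-ENG 3 was above 2 of them. The means were 5.08 ± 4.73 FPKM in anti-ENG tumours and 9.02 ± 5.34 FPKM in IgG tumours (SD, n = 3 each). The log2 fold change was -0.86 (95% interval -2.13 to 0.40, limma adjusted p = 0.586). It was -1.46 without anti-ENG 3, -0.46 without IgG control 1, and -0.15 with anti-ENG 1 and IgG control 1 both left out. GFRAL, the receptor of GDF15, averaged 0.0349 FPKM in anti-ENG tumours and 0.0363 FPKM in IgG tumours, so it was near 0 in these tumours.

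GDF11 had the smallest spread within arms of the 7 tested genes, with 4.45, 2.17 and 2.36 FPKM in anti-ENG 1, 2 and 3, against 3.39, 4.41 and 2.86 FPKM in IgG control 1, 2 and 3. Here anti-ENG 1 was the highest of all 6 tumours, unlike for the other ligands tested. Between arms its log2 fold change was -0.22 (95% interval -0.79 to 0.35, limma adjusted p = 0.744). It was -0.47 without anti-ENG 1, -0.075 without anti-ENG 2, -0.12 without anti-ENG 3, -0.088 without IgG control 2 and -0.33 without IgG control 3.

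Of the antagonists, FSTL3 had 5.13, 3.22 and 8.71 FPKM in anti-ENG 1, 2 and 3, against 5.61, 6.12 and 7.47 FPKM in IgG control 1, 2 and 3. The anti-ENG tumours again spanned the IgG range. The log2 fold change was -0.22 (95% interval -0.89 to 0.45, limma adjusted p = 0.780), with -0.53 without anti-ENG 3 and 0.068 without anti-ENG 2.

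GREM1 had 0.255, 0.417 and 0.554 FPKM in anti-ENG 1, 2 and 3, against 0.835, 0.512 and 0.466 FPKM in IgG control 1, 2 and 3. Anti-ENG 1 and 2 were below all IgG tumours and anti-ENG 3 was not. It was under the minimum for the limma test. An exact permutation test, two-sided, gave p = 0.3, and 3 tumours against 3 cannot give less than 0.1.

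FST had 0, 0.0525 and 0.396 FPKM in anti-ENG 1, 2 and 3, against 0, 0.0548 and 0.0588 FPKM in IgG control 1, 2 and 3. In depth-scaled steps these values were 0, 1 and 7 in anti-ENG 1, 2 and 3, and 0, 1 and 1 in IgG control 1, 2 and 3. Anti-ENG 3 thus stood alone, and the other 5 tumours held no more than 1 step each. An exact permutation test of the group difference, two-sided, gave p = 0.9.

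**Figure D3:**
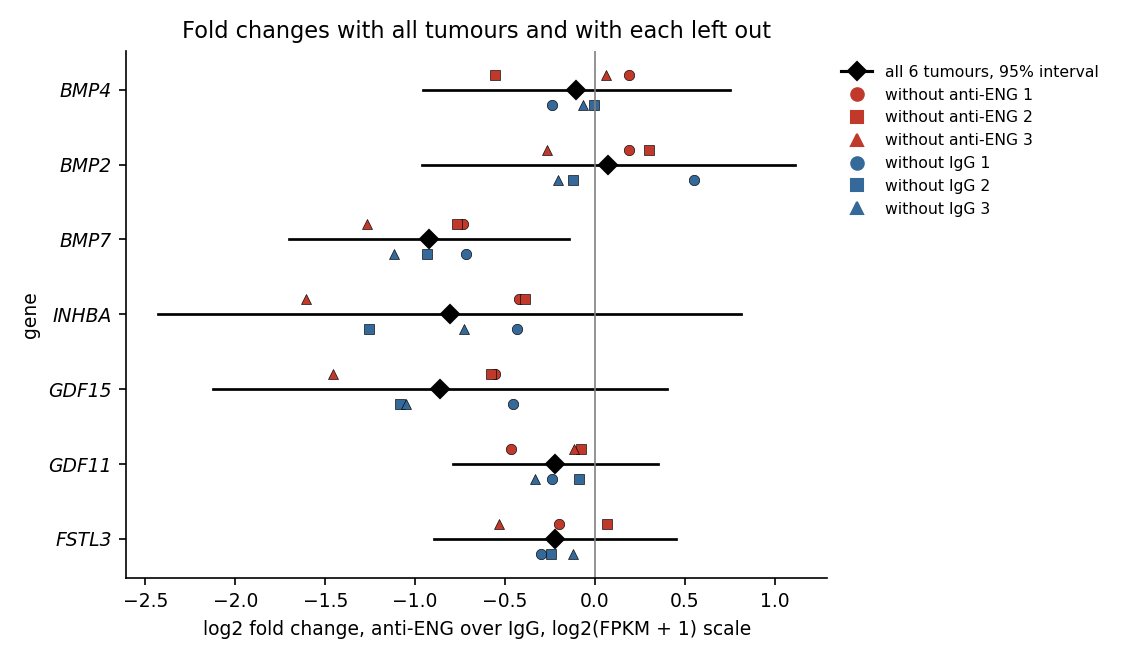
Log2 fold changes, anti-ENG over IgG on the log2(FPKM + 1) scale, of the 7 tested genes (black diamonds) with their 95% intervals, and the same estimate with each tumour left out (red symbols above for anti-ENG tumours, blue below for IgG tumours). All intervals but that of BMP7 include 0, and leaving out anti-ENG 3 moves INHBA and GDF15 to -1.61 and -1.46.

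Ratios within a tumour do not depend on scaling between libraries. INHBA exceeded FSTL3 by 1.90, 2.87 and 6.26 times in anti-ENG 1, 2 and 3, against 9.40, 2.63 and 4.65 times in IgG control 1, 2 and 3. Ligand RNA was above that of its binder in every tumour, and the groups overlapped. The log2 ratio averaged 1.70 ± 0.87 in anti-ENG tumours and 2.28 ± 0.92 in IgG tumours (SD, n = 3 each, exact two-sided permutation p = 0.5).

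BMP4 exceeded GREM1 by 82.0, 145 and 45.4 times in anti-ENG 1, 2 and 3, against 33.9, 76.6 and 77.2 times in IgG control 1, 2 and 3. The difference in log2 ratio was 0.48 (exact two-sided permutation p = 0.4). It was 0.060 without anti-ENG 2 and 0.082 without IgG control 1. The ratio of INHBA to FST could be formed only with an added constant, because FST was listed at 0 in 2 tumours. With 0.1 FPKM added to both genes, the difference in log2 ratio was -1.40 (exact two-sided permutation p = 0.2).

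The spread between tumours of 1 arm was wide for these genes. For 6 of the 7 tested genes the residual SD within groups was above that of 90% of all tested genes, a level that 10% of genes reach by construction. IgG control 1 and anti-ENG 3 were the highest 2 tumours for BMP2, GDF15 and INHBA, 3 of the 7 tested, and also for GREM1. The same pair led 9.88% of all genes tested. BMP4 differed, with both of these tumours below IgG control 2 and 3 and anti-ENG 2.

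The submitters' codes give anti-ENG 1 and 2 a shared number, and likewise IgG control 2 and 3, each pair ending in L and R. Whether such a pair came from 1 animal is not given in the labels, so the spread behind each p-value may be smaller than that between animals. Anti-ENG 1 and 2 were the closest 2 of their arm for 5 of the 7 tested genes, against 29.1% of all genes tested. IgG control 2 and 3 were the closest 2 of their arm for 4 of the 7, against 45.1% of all genes. The 5 genes with the closest anti-ENG pair were BMP2, BMP7, GDF15, INHBA and FSTL3.

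**Figure D4:**
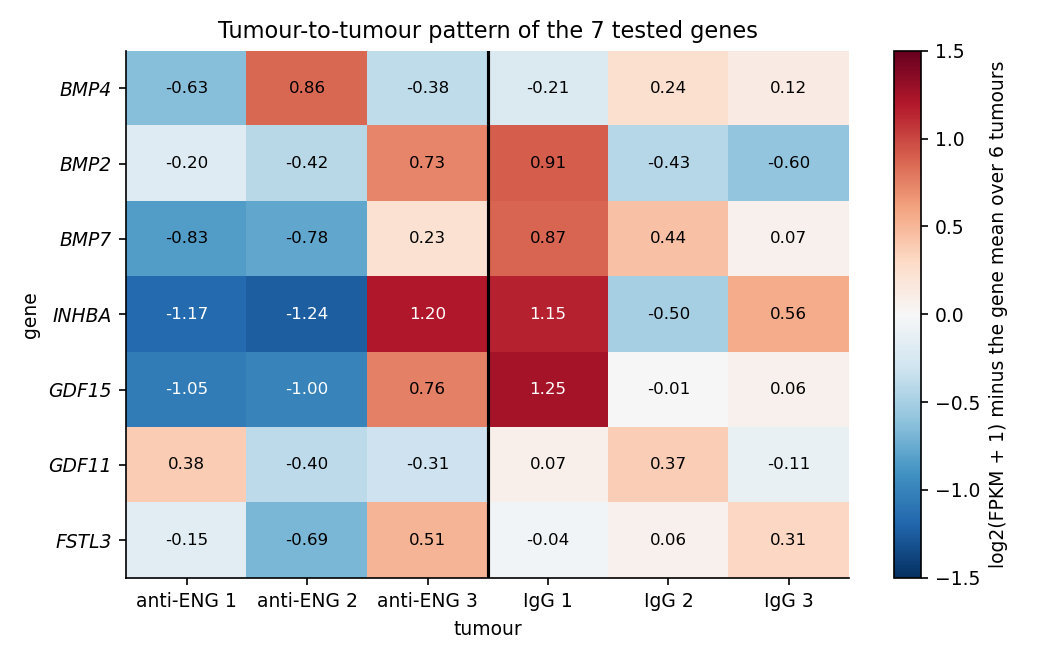
Heat map of log2(FPKM + 1) minus the mean of each gene over the 6 tumours, for the 7 tested genes (rows) in the anti-ENG tumours (left 3 columns) and IgG tumours (right 3 columns), red above and blue below the mean. INHBA and GDF15 are low in anti-ENG 1 and 2 and high in anti-ENG 3 and IgG control 1, while BMP4 is highest in anti-ENG 2.

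The genes whose levels over the 6 tumours were most like those of the 3 most abundant ligands were taken from all tested genes by Pearson correlation of log2(FPKM + 1). With 12585 genes to choose from and 6 tumours, very high values arise by selection alone. For INHBA they were IRF2BP2, PMEPA1 and PI3, each at r = 0.995 or more. PI3, encoding the elastase inhibitor elafin, had 0.731, 1.04 and 55.6 FPKM in anti-ENG 1, 2 and 3, against 42.3, 2.90 and 17.3 FPKM in IgG control 1, 2 and 3. PMEPA1 moved in the same order over a far narrower range, with 63.5, 63.2 and 78.2 FPKM in anti-ENG 1, 2 and 3, against 76.7, 66.8 and 72.6 FPKM in IgG control 1, 2 and 3. For BMP4 they were WASH1, which has near-identical copies, NFIX and LRRC29 (r = 0.984 or more). For BMP2 they were HSPA13, ESYT1 and C6orf228 (r = 0.981 or more).

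Around the ligands, 8 lists of pathway genes held 115 genes, of which 65 were tested and 0 passed the threshold (background 0% in either direction). Proteases that cut ligand precursors or antagonists were lower in 3 of 3 tested members (background 48.8%), with a median log2 fold change of -0.083. The split was 1 higher and 2 lower without anti-ENG 1 (median -0.028) and without IgG control 1 (median -0.011). With both of these tumours left out it was 2 higher and 1 lower (median 0.045). BMP1, a metalloprotease that cleaves the antagonist chordin, had 36.1 ± 6.34 FPKM in anti-ENG tumours and 41.1 ± 4.43 FPKM in IgG tumours (SD, n = 3 each). FURIN, the convertase that matures most of these ligands, had 26.2 ± 5.23 FPKM in anti-ENG tumours and 27.5 ± 4.99 FPKM in IgG tumours (SD, n = 3 each). RNA for ligand processing was therefore present in both arms. PCSK7, another convertase, had 26.7 ± 3.38 FPKM in anti-ENG tumours and 28.3 ± 2.95 FPKM in IgG tumours (SD, n = 3 each).

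The 3 other ligands tested had a median log2 fold change of 0.024, and the 7 other antagonists and modulators one of 0.13, with 4 higher and 3 lower. Both signs rested on single tumours: leaving out 1 tumour at a time, the median of the ligands ran from -0.22 to 0.089 and that of the antagonists and modulators from -0.28 to 0.16, with the lowest values of both without anti-ENG 3. In TSKU, encoding the small leucine-rich protein tsukushi, every anti-ENG tumour lay below every IgG tumour (background 6.75%), with 4.72 ± 1.73 FPKM in anti-ENG tumours and 8.95 ± 2.31 FPKM in IgG tumours (SD, n = 3 each, log2 fold change -0.82, limma adjusted p = 0.529).

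Receptors and co-receptors had lower estimates in 9 of 11 tested members (background 48.8%), with a median of -0.13. The split was 4 higher and 7 lower without anti-ENG 1 (median -0.12) and without IgG control 1 (median -0.082). ENG itself had 15.5, 29.5 and 26.7 FPKM in anti-ENG 1, 2 and 3, against 41.0, 23.9 and 22.1 FPKM in IgG control 1, 2 and 3, and the groups overlapped (log2 fold change -0.26, limma adjusted p = 0.751). The estimate of ENG was 0.28 with anti-ENG 1 and IgG control 1 both left out. BMPR2, the type II BMP receptor, was 6.73 ± 0.785 FPKM in anti-ENG tumours and 8.52 ± 0.854 FPKM in IgG tumours (SD, n = 3 each, limma adjusted p = 0.529), and RGMB, a BMP co-receptor, 20.5 ± 3.05 FPKM in anti-ENG tumours and 16.5 ± 0.955 FPKM in IgG tumours (SD, n = 3 each, limma adjusted p = 0.529). The groups did not overlap in either gene, with anti-ENG below for BMPR2 (background 6.75%) and above for RGMB (background 10.6%). Of the 11 tested members, 1 was thus apart in each direction, close to the 17.3% of all genes tested that were apart in either. ACVR1, a type I receptor of BMPs, had 14.2 FPKM in anti-ENG tumours and 16.7 FPKM in IgG tumours on average.

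SMADs and their ubiquitin ligases were higher in 4 and lower in 5 of 9 tested members (median -0.029, and 0.036 without IgG control 1). SMAD5 and SMAD3 had means of 21.1 and 23.1 FPKM in anti-ENG tumours and of 19.2 and 22.2 FPKM in IgG tumours. These transducers of the BMP and activin branches were thus present in both arms. SMAD1 had 8.99 ± 2.35 FPKM in anti-ENG tumours and 11.7 ± 3.32 FPKM in IgG tumours (SD, n = 3 each, limma adjusted p = 0.605). SMURF2, a ubiquitin ligase that removes SMADs and receptors, had 21.9 ± 3.64 FPKM in anti-ENG tumours and 18.4 ± 1.15 FPKM in IgG tumours (SD, n = 3 each, limma adjusted p = 0.590).

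Target genes of the BMP branch were higher in 6 and lower in 5 of 11 tested members, with a median log2 fold change of 0.053. Single tumours turned this split, which was 2 higher and 9 lower without IgG control 3 (median -0.17), 3 and 7 of 10 without anti-ENG 2 (median -0.075) and 8 and 3 without IgG control 1 (median 0.19). ID1 and ID3, inhibitors of basic helix-loop-helix factors and early targets of SMAD1 and SMAD5, had 102 ± 43.5 and 66.5 ± 26.5 FPKM in anti-ENG tumours and 85.7 ± 42.5 and 57.5 ± 26.4 FPKM in IgG tumours (SD, n = 3 each). HEY1, a transcriptional repressor also under Notch control, had 1.20, 1.34 and 2.84 FPKM in anti-ENG 1, 2 and 3, against 7.77, 7.67 and 2.21 FPKM in IgG control 1, 2 and 3. Anti-ENG 3 was above IgG control 3, and the log2 fold change was -1.21 (limma adjusted p = 0.529). HES1, another Notch-linked repressor, averaged 20.9 FPKM in anti-ENG tumours and 22.0 FPKM in IgG tumours. BAMBI, a pseudoreceptor that dampens signalling, averaged 3.43 FPKM in anti-ENG tumours and 4.85 FPKM in IgG tumours, and its estimate did not pass (limma adjusted p = 0.632).

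Target genes of the activin branch were lower in 11 of 13 tested members (background 48.8%), with a median of -0.17. Of these, 0 had groups that did not overlap (background 17.3%). The median ran from -0.36 without IgG control 3 to -0.089 without IgG control 1. With replicate 1 of both arms left out, the split was 5 higher and 8 lower (median -0.072). TGFBI, a matrix protein, was the most abundant, with means of 1148 FPKM in either arm. FN1, encoding fibronectin, averaged 371 FPKM in anti-ENG tumours and 486 FPKM in IgG tumours, and the ligand gene TGFB1 97.2 FPKM in anti-ENG tumours and 121 FPKM in IgG tumours. Neither passed (limma adjusted p = 0.566 for FN1 and 0.542 for TGFB1). COL1A1 had 335 ± 153 FPKM in anti-ENG tumours and 547 ± 180 FPKM in IgG tumours (SD, n = 3 each, log2 fold change -0.79, limma adjusted p = 0.543). COL1A1 is also a fibroblast gene, and the fibroblast sums are given above.

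The stress list, which holds inducers and companions of GDF15, was higher in 6 and lower in 7 of 13 members (median -0.11). With single tumours left out the median ran from -0.18 without IgG control 3 to 0.092 without anti-ENG 2. ATF4, the central factor of that response, averaged 203 FPKM in anti-ENG tumours and 191 FPKM in IgG tumours, and DDIT4 65.8 FPKM in anti-ENG tumours and 79.6 FPKM in IgG tumours. PSAT1, a serine synthesis gene, had 19.7 ± 4.13 FPKM in anti-ENG tumours and 10.1 ± 3.05 FPKM in IgG tumours, and DDIT3, encoding CHOP, 18.6 ± 2.78 FPKM in anti-ENG tumours and 26.3 ± 6.57 FPKM in IgG tumours (SD, n = 3 each, limma adjusted p = 0.529 for both). The groups overlapped for DDIT3. In 2 of the 13 members, PSAT1 and ASNS, every anti-ENG tumour lay above every IgG tumour (background 10.6%).

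**Figure D5:**
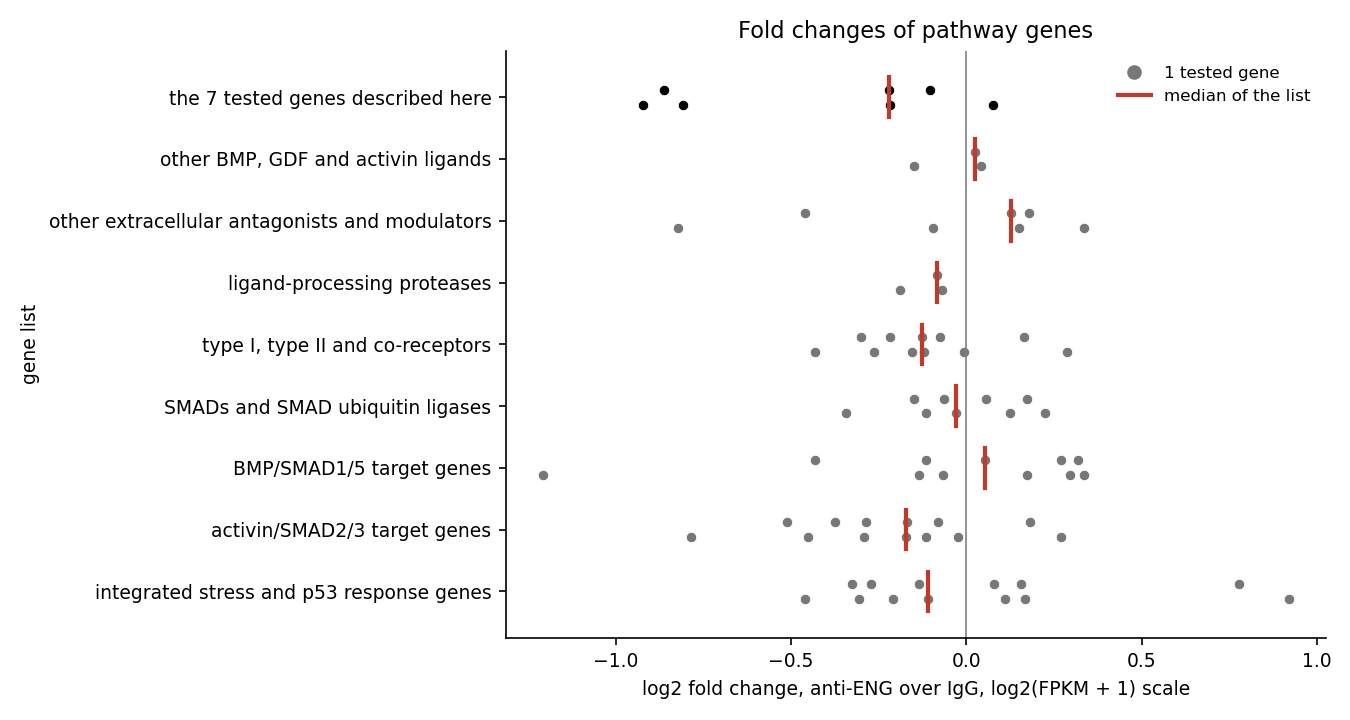
Log2 fold changes, anti-ENG over IgG on the log2(FPKM + 1) scale, of each tested gene (dots) in the 7 tested genes described here (black) and in 8 lists of pathway genes (grey), with the median of each list as a red bar. Medians of the 8 lists lie between -0.17 and 0.13, that of the 7 tested genes is -0.22, and 0 genes pass the adjusted threshold.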

How the data were processed

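The deposited table holds 1 column of FPKM values per tumour, matched to samples by the description codes. Per the submitters' processing notes, the authors made these FPKM values on the human build GRCh37 (hg19), with Cuffnorm and Cufflinks 2.2.1, TopHat2 2.0.10 and Bowtie 1.0.0 among the tools named. Library scaling, strand use and the handling of mouse reads are not given in the sources used here. Sequenced RNA was polyadenylated, per the labels' protocols, and a pair of library kits and instruments is named without assignment to samples.

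The arms were tested on log2(FPKM + 1) by limma (version 3.58.1, R 4.3.3), eBayes with trend, over the 12586 genes averaging 1 FPKM or more. P-values are two-sided, adjusted by Benjamini-Hochberg over all genes tested. This step was first tested on simulated data. Relative depths came from genes of at most 0.05 FPKM in both samples. The members, gene lists and tests were chosen with earlier results of these data known. Named pathway genes were the 3 of largest mean and the 2 of smallest p in each list, and NOG, ACVRL1, GDF2, BMP10 and GFRAL were added for their known roles after their values were seen. Alternatives covered pseudocount, filter, scaling, variance model, weights, blocks and leaving out tumours. No human sequence or annotation was used here.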

Additional observations from a re-analysis of the deposited data

How the results depend on the processing

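No gene, none of the members and no gene of the 8 pathway lists passed the adjusted threshold under any of the 18 alternatives run, the lowest adjusted p being 0.270 (without IgG control 1). The unadjusted count of 1154 genes fell to 689 without anti-ENG 1, 728 without IgG control 1, 661 without IgG control 2 and 737 without replicate 1 of both arms, and was 1564 without anti-ENG 2. Deviations of same-numbered tumours of the arms correlated at -0.33, 0.19 and 0.037. Those of differently numbered tumours correlated at between -0.49 and 0.35. Deviations within so small an arm depend on each other, so these values cannot decide whether shared replicate numbers mark a pairing. With the replicate block, 0 genes passed and 842 had an unadjusted p under 0.05. BMP7, GDF11, GDF15 and INHBA kept a negative estimate in every alternative that tested them, BMP7 between -1.38 and -0.40. When single tumours were left out, BMP2 ran from -0.27 to 0.55, BMP4 from -0.56 to 0.19, FSTL3 from -0.53 to 0.068 and ENG from -0.44 to 0.0070. With samples rescaled to the same sum, the median of all genes moved to -0.10 and BMP2 to -0.039. Leaving out replicate 1 of both arms, chosen after seeing the data, gave 0.055 for BMP4, 0.28 for ENG, 0.015 for SMAD1 and 0.28 for the log2 ratio of INHBA to FSTL3, all reversed in sign. The cause was not tested. Without a filter on low values, BMP6, FST and GREM1 were tested and did not pass. Mean member levels under 2 rescalings stayed within 1 SD between tumours. Summed FPKM ran only from 410786 in IgG control 3 to 475146 in anti-ENG 1. Rescaling to the same sum could therefore hardly have failed this check.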
